A study of Mus musculus with 39 samples.

Results

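Spleens of mice labelled SXR knockout were compared with spleens of mice labelled wild type, all of them exposed to PCB-153, across all 19058 genes whose normalised read count averaged at least 10 over the spleen libraries. The comparison rests on 10 of the 39 libraries of the series, 5 from labelled-knockout and 5 from labelled-wild-type spleens, chosen by tissue, genotype and exposure in the sample labels. The mice were C57BL/6 and 4 weeks old, and both groups were exposed from around birth to PCB-153, a polychlorinated biphenyl that persists in tissue, at a daily dose near 54 µg per kg. The most like comparison in the series sets 5 labelled-knockout spleens against 4 labelled-wild-type spleens of the same strain and age that had received only the solvent DMSO, and livers of all 4 kinds were also sequenced. The knockout is of SXR/PXR in the whole animal as far as the labels say, and the sources used here do not give the exons removed. No label says whether libraries of one group are from different animals or litters. The p-values therefore reflect the spread between these samples alone, which may be technical.

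SXR, also called PXR and encoded by Nr1i2, is a nuclear receptor that binds many drugs, steroids and pollutants and switches on genes of drug metabolism, mainly in liver and intestine. The mouse spleen filters blood, holds B and T lymphocytes around its arterioles, and in young mice still makes red blood cells. Non-dioxin-like biphenyls such as PCB-153 are known for acting in liver through this receptor and its relative CAR.

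Depth was 16.1 to 29.52 M assigned reads per library over the 10 libraries (median 19.74 M). Values below are normalised read counts, that is, reads divided by a size factor of the library, and differences are log2 fold changes of the labelled knockout over labelled wild type on log2(value + 1), which understates the change of low genes. A gene is called when its limma p, adjusted by the Benjamini-Hochberg method over all 19058 genes, is under 0.05. Where 5 values of a group are listed, they are replicates 1 to 5 in order. Markers of other tissues varied between libraries. Of 19 pancreatic genes tested, all 19 had a higher mean in the labelled knockout, with summed levels of 13180 in replicate 1, 103900 in replicate 4 and 1121 in replicate 5 against 592.5 to 687.6 in labelled wild type, while replicates 2 and 3 stood at 640.2 and 828.9. Most of the 19 were near 0 in labelled wild type and reached the minimum average of 10 only through labelled-knockout replicates 1 and 4. Their higher means were thus largely fixed by that filter. Sycn and Reg1, 2 defining pancreatic genes, were at 0 in all 5 labelled-wild-type libraries, and the insulin gene Ins1 was at 0 in all 10. Pigment cell genes were raised in labelled-knockout replicates 2 and 3, where the list summed to 597.6 and 1542 against 214.9 to 243.3 in labelled wild type. Hepatocyte genes summed to 4751 in labelled-wild-type replicate 1 and to between 39.1 and 359.2 in the other 9 libraries. Adipocyte genes, with 4 higher and 2 lower means among the 6 tested, summed to 127.6 to 1397 in labelled wild type and 72.82 to 1320 in the labelled knockout. What part these tissues have in the results was not tested. Values without the 3 labelled-knockout libraries that carried pancreatic RNA are listed together below for the genes whose call they end. Where they turn the direction of a named gene, they are given beside that gene.

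**Figure D1:**
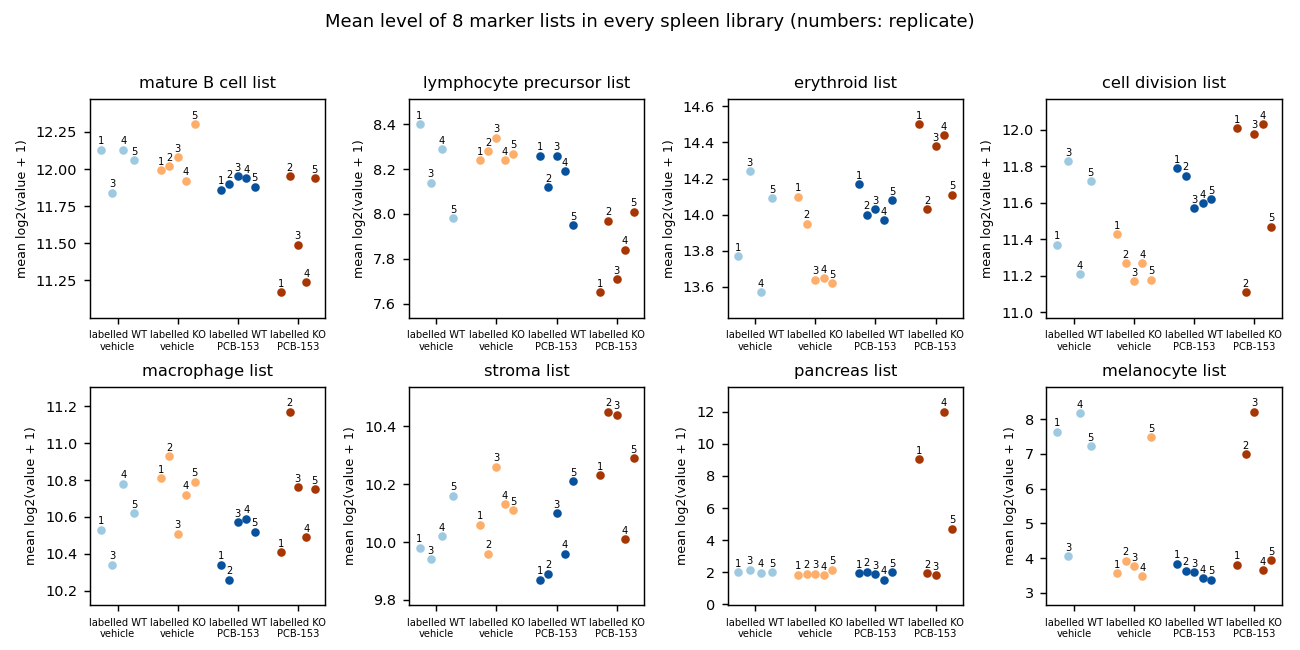
Mean log2(value + 1) of 8 marker lists (y axis, a separate scale in each panel) in every spleen library, by group, with replicate numbers beside the points. Labelled-knockout PCB-153 replicates 4, 1 and 5 stand at 12, 9.04 and 4.72 in the pancreas list, and replicates 1, 3 and 4 are lowest in the mature B cell list and highest in the erythroid list.

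The targeted gene went against the label. Nr1i2 (chromosome 16, 38248323 to 38294824, minus strand, GRCm38) was counted at 2.23, 0, 0, 0 and 0 in the 5 labelled-wild-type spleens and at 43.0, 53.5, 57.0, 50.9 and 55.9 in the 5 labelled-knockout spleens. Every labelled-knockout library was far above every labelled-wild-type library, and 4 of the 5 labelled-wild-type libraries had no read at all. The groups held 2 and 249 reads of this gene, a ratio of 133 per assigned read with an exact 95% interval of 36.4 to 1100 that covers counting error only. The fitted log2 fold change was 5.38 ± 0.37 (limma adjusted p = 1.84e-08). Under vehicle the same fit gave 5.38 ± 0.39. In the livers exposed to PCB-153 the order was the other way round, at 1395 ± 390 (SD, n = 5) in wild type and 862 ± 215 (n = 5) in knockout, a difference that did not pass the limma test (-0.69, adjusted p = 0.111). In the vehicle livers Nr1i2 was called lower in knockout (-1.18 ± 0.20, limma adjusted p = 0.00415). There single libraries ran from 1328 to 1781 in wild type and from 449 to 969 in knockout. Counts per gene cannot separate retained exons from an intact transcript, and an exchange of the genotype labels among the spleens, which would reverse every direction given here, was not tested. The groups are therefore called labelled knockout and labelled wild type, and each direction rests on those labels.

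Over all genes 30 were called, 0.157% of those tested. Of these, 15 were higher in the labelled knockout (0.0787%) and 15 were lower (0.0787%). An unadjusted p under 0.05 was reached by 2073 genes (10.9%). The 30 genes fall into 3 sets: 8 genes on the chromosome of Nr1i2, 11 genes elsewhere that were lower, and 11 genes elsewhere that were higher. The lower set holds the B-cell genes Klhl14 and Fam129c and 4 genes of interferon-inducible families. The higher set holds Igha, the immunoglobulin A heavy chain constant region, with Cish, Itgae, Sema3g, Gpx3, Cd5l and Il9r. In 28 of the 30 genes the 5 libraries of one group did not overlap the 5 of the other, against 2.05% of all genes tested. The 30 were chosen on these same libraries, so this separation is no further evidence. Leaving out 1 library moved the count of called genes to between 10 (without labelled-wild-type replicate 2) and 119 (without labelled-knockout replicate 5). All 30 genes kept their direction in each of the 10 such fits, which their choice on the same libraries largely fixed. In every one of them 9 genes were called: Nr1i2, Ift57, Pla1a, Dubr, Cd96, Gm15518, Klhl14, Slfn8 and Itgae. The other 21 lost the call in at least 1 fit, with a highest adjusted p of 0.0506 for Cish to 0.165 for Cd5l.

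Tests on the recovered reads called more genes, 65 (0.341%) with edgeR's quasi-likelihood test and 221 (1.16%) with DESeq2, and all 30 were among both. The authors' deposited table for this comparison lists 219 genes, 133 higher and 86 lower, and it holds all 30. Its further members include 18 of the 19 pancreatic genes, of which limma called 0, edgeR 13 and DESeq2 18, while all 19 had an unadjusted limma p under 0.05. Most of these genes passed the filter on low values only through labelled-knockout libraries, so these counts are no independent evidence of a difference. Without labelled-knockout replicates 1, 4 and 5, which carried pancreatic RNA, the fit kept only labelled-knockout replicates 2 and 3. In both of these, pigment cell genes were raised. How far the smaller group changed the calls was not tested. In that fit limma called 38 genes, 30 higher and 8 lower, and 12 of the 30 were among them. Those 12 were 7 genes of chromosome 16 (Nr1i2, Pla1a, Ift57, Gm15518, Dubr, Cd96 and Plcxd2) with Slfn8, Cish, Itgae, Sema3g and Gpx3. The other 18 had the same direction and adjusted p-values of 0.0587 for Klhl14, Cep97, Igkv1-110 and Il9r up to 0.148 for Ighv1-11. Their log2 fold changes without those 3 libraries follow, with the values over all libraries in brackets. Larger in size were Cep97 -0.70 (-0.58), Igkv1-110 0.82 (0.70), Il9r 0.56 (0.55), Cd5l 0.76 (0.68) and Gm17041 0.92 (0.82). Smaller were Fam129c -0.47 (-0.67), Adamts6 -0.57 (-0.70), Gm32220 -0.45 (-0.59), Gm7887 0.40 (0.53), 4930426D05Rik -0.55 (-0.65) and 5830408C22Rik -0.43 (-0.51). Also smaller were Gm20559 -0.52 (-0.60), Ifi209 -0.56 (-0.60), Trim12a -0.36 (-0.40), Ifi214 -0.64 (-0.65), Klhl14 -0.75 (-0.77), Igha 2.08 (2.18) and Ighv1-11 1.56 (1.69).

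The 8 called genes on chromosome 16 all lay within 20 Mb of Nr1i2, where 276 genes were tested (2.9% called). None of the 261 tested genes farther away on that chromosome was called, and 22 of the 18521 other genes were (0.119%). This holds for the limma calls only. The authors' longer list includes Abat, Myh11 and Brwd1, which lie farther than 20 Mb from Nr1i2. It also includes B3gnt5 and Fstl1, within 20 Mb but on the other side of Nr1i2 from the called genes. On the side of the called genes, and within 20 Mb, it further includes Popdc2, Ccdc80, Cd47, Bbx and Nfkbiz. Under vehicle 5 of the same 276 genes were called (1.81%) against 1 of the 18521 (0.0054%). The median log2 fold change within 20 Mb was -0.024, beside -0.0038 over all genes tested. Of the 8 genes, 4 were higher and 4 lower. With differences in both directions, a median cannot show how many genes of the region differed.

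**Figure D2:**
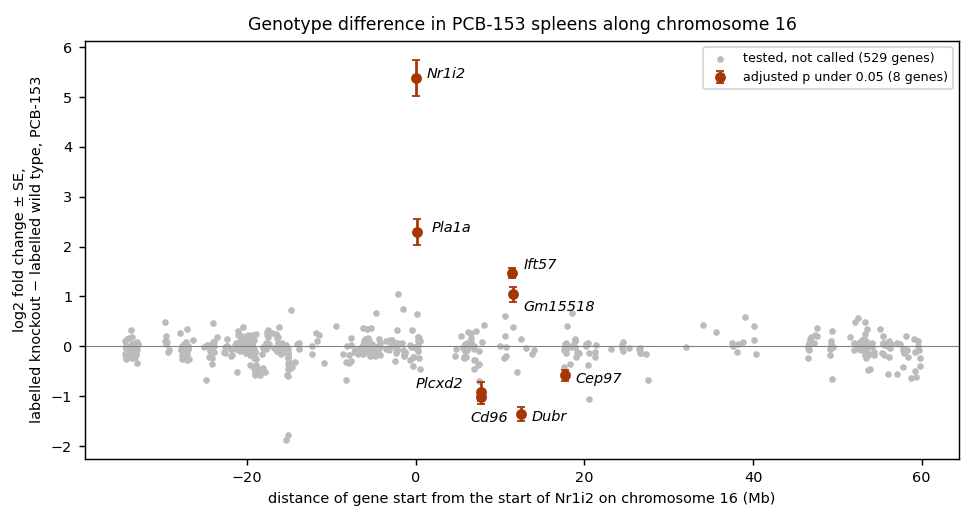
Log2 fold change of the labelled knockout over labelled wild type after PCB-153 (y axis) for the 537 tested genes of chromosome 16 by distance of their start from that of Nr1i2 in Mb (x axis). Red points with bars are the 8 called genes with their SE and grey points the other 529, and every red point lies between 0 and 17.65 Mb on one side of Nr1i2.

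Pla1a, which encodes a phospholipase that acts on phosphatidylserine (chromosome 16, 38396117 to 38433145), lies 0.15 Mb from Nr1i2. It stood at 10.04, 12.1, 9.07, 8.42 and 10.7 in labelled wild type and at 81.7, 57.2, 44.7, 48.8 and 40.6 in the labelled knockout. The groups did not overlap, and the lowest labelled-knockout library was over every labelled-wild-type one by more than the range of labelled wild type. It differed by 2.29 ± 0.26 on the log2 scale (limma adjusted p = 6.39e-05), beside 2.49 ± 0.27 under vehicle. Of the other genes within 0.5 Mb of Nr1i2 none was called, Cox17, Gsk3b, Adprh, Cd80, Timmdc1, Poglut1 and Tmem39a among them. Popdc2, between Nr1i2 and Pla1a, had a log2 fold change of 0.66 ± 0.16. On the other side of Nr1i2, Fstl1 was at 0.32 ± 0.09 and Gm15725 at -0.40 ± 0.12. The authors' deposited table lists Popdc2 and Fstl1. These neighbours were picked for their position after their values were seen.

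Ift57, a subunit of the particle that carries cargo along cilia (chromosome 16, 49699233 to 49765126), had the smallest adjusted p of the comparison, together with Nr1i2. Labelled-wild-type spleens had 151, 164, 139, 137 and 156, and labelled-knockout spleens had 447, 391, 450.2, 399.9 and 401. The lowest labelled-knockout library stood more than 2-fold above the highest labelled-wild-type one. The fitted difference was 1.48 ± 0.10 on the log2 scale (limma adjusted p = 1.84e-08), beside 1.13 ± 0.11 under vehicle. The antisense gene Gm15518 (chromosome 16, 49758576 to 49798870), which overlaps Ift57 on the other strand, was at 49.1, 51.3, 49.0, 39.7 and 53.7 in labelled wild type and 108, 91.3, 122, 101 and 85.5 in the labelled knockout, a log2 fold change of 1.04 ± 0.14 (limma adjusted p = 0.00145). The labels name a stranded and an unstranded library kit and no strand setting for the counting, so reads of this pair cannot be told apart.

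The 4 lower genes of the region lay on the same side of Nr1i2, Plcxd2 and Cd96 nearer to it than Ift57 and Dubr and Cep97 farther from it. Dubr, a long noncoding RNA gene (chromosome 16, 50719294 to 50732773), fell from 142 ± 17.2 to 54.9 ± 11.8 (mean ± SD, n = 5 each), with single libraries at 145, 142, 159, 149 and 113 and 44.1, 56.0, 45.8, 55.2 and 73.7. Cd96, a surface receptor of T and natural killer cells (chromosome 16, 46035657 to 46120251), was at 166, 159, 114, 165 and 181 in labelled wild type and 64.5, 73.0, 76.0, 82.7 and 87.2 in the labelled knockout. Neither gene's groups overlapped, and the lowest labelled-wild-type library of Cd96 was replicate 3. Log2 fold changes were -1.36 ± 0.14 for Dubr (limma adjusted p = 2.55e-05) and -1.02 ± 0.14 for Cd96 (limma adjusted p = 0.00186), and under vehicle -1.15 ± 0.15 and -0.93 ± 0.15. Cd96 was the only called gene among 22 T cell genes, of which 20 had a lower mean in the labelled knockout with a median log2 fold change of -0.18. Cd3e, a subunit of the T cell receptor complex, gave -0.21 ± 0.13 (limma adjusted p = 0.598), and it turned to 0.06 without the 3 libraries with pancreatic RNA.

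Plcxd2, which encodes a protein with a phospholipase C domain and is a close neighbour of Cd96 (chromosome 16, 45959263 to 46010218), was at 137, 122, 145, 138 and 142 in labelled wild type and 78.5, 92.5, 38.0, 91.2 and 78.8 in the labelled knockout. Replicate 3 was the lowest by a wide gap, and the groups did not overlap. Cep97, a centriole protein that holds back cilium formation (chromosome 16, 55899888 to 55934855), was at 575, 529, 459, 491 and 365 and 302, 297, 293, 379 and 333, and here the lowest labelled-wild-type library fell among the labelled-knockout ones. The log2 fold changes were -0.91 ± 0.18 (limma adjusted p = 0.0444) and -0.58 ± 0.11 (limma adjusted p = 0.0392). Under vehicle Plcxd2 was at -0.54 ± 0.19 and Cep97 at -0.20 ± 0.12, neither called.

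**Figure D3:**
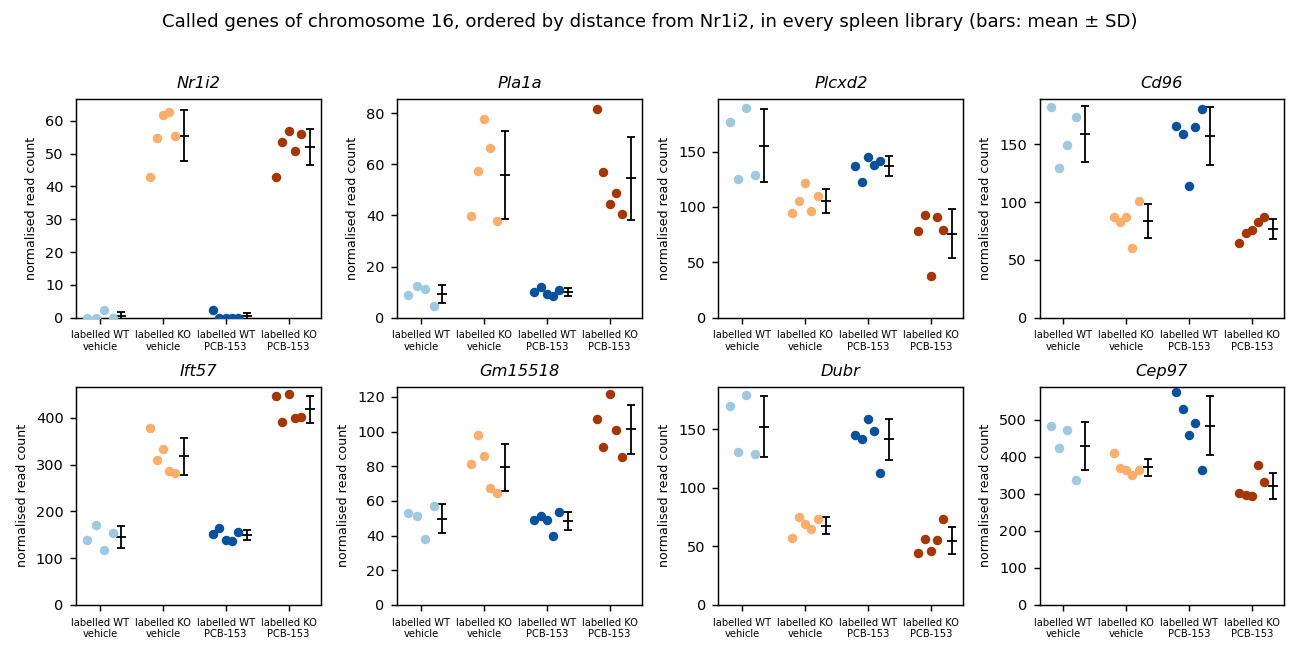
Normalised read counts (y axis, from 0) of the 8 called genes of chromosome 16 in each spleen library of the 4 groups, ordered by distance from Nr1i2, with mean ± SD as black bars. Nr1i2, Pla1a, Ift57 and Gm15518 are higher and Plcxd2, Cd96, Dubr and Cep97 lower in the labelled knockout, and all 8 means differ in the same direction under vehicle.

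A further gene outside this region shares sequence with it. Gm7887, a processed pseudogene on chromosome 6, shares 86.9% of its 50-base words with Pcnp, which lies on chromosome 16, 17.76 Mb from Nr1i2. It was at 364, 337, 375, 367 and 359 in labelled wild type and 527, 392, 573, 582 and 553 in the labelled knockout, with no overlap and with labelled-knockout replicate 2 the lowest of its group. The log2 fold change was 0.53 ± 0.09 (limma adjusted p = 0.0116), beside 0.49 ± 0.09 under vehicle, and reads of the 2 genes may not be told apart. Pcnp itself gave -0.14 ± 0.08 (limma adjusted p = 0.558). Both genes were chosen after their values were seen.

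Of the 11 lower genes on other chromosomes, 4 belong to families that interferons are known to induce. Interferon response elements are bound by STAT and IRF factors, and the p200 proteins bind nucleic acids, some Schlafen proteins cut tRNA, and TRIM proteins of the Trim5 kind act against retroviruses. The promoters of the 4 called genes are shown because each is a called lower gene of such a family, and that of Cish because it is known as a STAT5 target. Capitals mark the letters GAAANNGAAA on either strand, the core of an interferon-stimulated response element, in the first 4 and the letters TTCNNNGAA, the core that STAT dimers bind, in Cish. Sequences are from RefSeq, GRCm38.p6, 5′ to 3′ on the strand of the gene, from upstream of the annotated start to shortly after it: Ifi209 chr1:173630609-173630908 (plus strand), Ifi214 chr1:173535908-173536207 (minus), Slfn8 chr11:83020761-83021060 (minus), Trim12a chr7:104315446-104315745 (minus) and Cish chr9:107296409-107296708 (plus).
Ifi209: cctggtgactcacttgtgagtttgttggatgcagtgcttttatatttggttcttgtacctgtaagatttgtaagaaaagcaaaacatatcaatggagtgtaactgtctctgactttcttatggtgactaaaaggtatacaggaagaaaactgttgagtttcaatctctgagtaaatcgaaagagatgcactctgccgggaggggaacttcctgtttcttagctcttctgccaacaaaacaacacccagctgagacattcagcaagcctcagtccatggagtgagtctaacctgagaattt
Ifi214: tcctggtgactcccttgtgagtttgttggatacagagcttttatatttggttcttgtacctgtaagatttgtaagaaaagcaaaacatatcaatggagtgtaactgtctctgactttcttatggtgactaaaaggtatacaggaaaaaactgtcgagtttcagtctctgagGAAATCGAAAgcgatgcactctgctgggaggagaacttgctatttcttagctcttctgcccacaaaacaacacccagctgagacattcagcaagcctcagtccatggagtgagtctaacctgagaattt
Slfn8: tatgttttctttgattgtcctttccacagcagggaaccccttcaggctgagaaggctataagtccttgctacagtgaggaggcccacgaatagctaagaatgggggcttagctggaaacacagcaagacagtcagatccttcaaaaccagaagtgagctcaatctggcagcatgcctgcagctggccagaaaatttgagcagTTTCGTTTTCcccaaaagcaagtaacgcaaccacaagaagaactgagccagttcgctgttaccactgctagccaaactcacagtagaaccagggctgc
Trim12a: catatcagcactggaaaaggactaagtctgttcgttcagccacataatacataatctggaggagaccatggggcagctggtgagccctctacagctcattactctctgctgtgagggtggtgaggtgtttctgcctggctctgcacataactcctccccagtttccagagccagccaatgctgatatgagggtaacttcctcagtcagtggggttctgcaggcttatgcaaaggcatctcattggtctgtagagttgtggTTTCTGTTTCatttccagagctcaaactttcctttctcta
Cish: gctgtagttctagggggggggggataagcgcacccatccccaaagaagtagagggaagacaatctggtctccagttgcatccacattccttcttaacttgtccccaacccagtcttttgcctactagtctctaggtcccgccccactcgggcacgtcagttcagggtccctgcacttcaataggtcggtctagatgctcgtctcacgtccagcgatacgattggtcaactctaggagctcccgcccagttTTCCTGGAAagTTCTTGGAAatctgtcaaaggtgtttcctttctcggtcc
With the first transcribed base counted as 1, the response element letters began at -79 in Ifi214, -48 in Slfn8 and 11 in Trim12a, and were not found in the Ifi209 window. From another annotated start of Slfn8, not shown, the same letters began at -136. The Ifi209 and Ifi214 windows share an unbroken run of 109 bases. In Cish the STAT letters began at 1 and again at 12. The response element letters occur in 3.44% of all 32851 promoters of this length and the STAT letters in 8.3%. Among the 14920 promoters of tested genes the shares are 3.32% and 7.07%. These shares are per promoter, and a gene can have several promoters. Of the 17 called genes with a promoter in the table, 3 held the former and 3 the latter, Cd96 and Dubr besides Cish. No motif overlaps another in the windows shown, and a match is a description of letters only.

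Slfn8 (chromosome 11, 83002158 to 83020810) was at 642, 746, 683, 704 and 718 in labelled wild type and 445, 479.5, 389, 389 and 523 in the labelled knockout. All 5 labelled-knockout libraries lay below all 5 labelled-wild-type ones. Slfn8 differed by -0.66 ± 0.10 on the log2 scale (limma adjusted p = 0.00721), beside 0.10 ± 0.11 under vehicle. Of its 50-base words 14.6% occur in other genes, Slfn9 among them, which gave 0.16 (limma adjusted p = 0.678), so its count is uncertain to that extent. Over the 7 Schlafen genes tested, 1 was called lower and none higher, 5 means were lower, and the median was -0.23, while edgeR and DESeq2 called 1 each.

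Ifi209 (chromosome 1, 173630917 to 173647928) was at 2206, 2553, 2436, 2286 and 2423 in labelled wild type and 1413, 1802, 1450, 1354 and 1927 in the labelled knockout. Ifi214 (chromosome 1, 173519717 to 173535957) was at 595, 624, 665, 631 and 618 and 346, 454, 354, 353 and 518. In both genes replicates 2 and 5 were the highest of the labelled knockout, and the groups did not overlap. The log2 fold changes were -0.60 ± 0.11 (limma adjusted p = 0.0334) and -0.65 ± 0.13 (limma adjusted p = 0.0392), beside 0.02 ± 0.12 and -0.09 ± 0.14 under vehicle. Of the 11 p200 genes tested, 2 were called lower and none higher, 10 means were lower, and the median was -0.41 beside 0.02 under vehicle. At an unadjusted limma p under 0.05, 8 of the 11 were lower, and edgeR called 2 lower and DESeq2 7. Ifi208 and Ifi213 had larger differences than either, -0.67 (limma adjusted p = 0.0509) and -0.74 (0.119), and Ifi207 was at 0.10. Of the 50-base words of Ifi209 33.7% occur in other annotated genes, and of those of Ifi214 14.6%, so both counts are uncertain to that extent.

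Trim12a (chromosome 7, 104299894 to 104315466) was at 1077, 1089, 1044, 1093 and 982 in labelled wild type and 695, 889.7, 756, 719 and 963 in the labelled knockout, without overlap and again with replicates 2 and 5 highest. Its log2 fold change was -0.40 ± 0.08 (limma adjusted p = 0.0392), beside 0.00 ± 0.09 under vehicle. In the Trim5 cluster all 9 genes tested had a lower mean, 1 was called, and the median was -0.36. There 8 were at an unadjusted limma p under 0.05, and edgeR called 1 and DESeq2 3. Trim30b was at -0.50 (limma adjusted p = 0.0644) and Trim30a at -0.41 (0.140). These 3 families were picked after their values were seen. The list of 29 classical interferon-response genes, which holds none of them, had 0 called, 24 lower means and a median of -0.25, beside -0.18 under vehicle. In it 11 genes were lower at an unadjusted limma p under 0.05 and none higher, while edgeR and DESeq2 called 0, and Isg15 and Rsad2 had higher means (0.23 and 0.25).

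Klhl14, a Kelch-like adaptor protein of B cells (chromosome 18, 21550377 to 21654718), was at 286, 276, 245, 244 and 253 in labelled wild type and 142, 158, 149.7, 139 and 172 in the labelled knockout. The gap between the groups was wider than the range within either. The log2 fold change was -0.77 ± 0.12 (limma adjusted p = 0.00631), beside 0.03 ± 0.13 under vehicle. Its antisense neighbour 4930426D05Rik was lower too, at -0.65 ± 0.12 (limma adjusted p = 0.0354), with overlapping groups, and without a known strand setting reads of the pair cannot be told apart.

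Fam129c, a gene expressed mainly in B cells (chromosome 8, 71597648 to 71607936), was at 1366, 1423, 1539, 1467 and 1311 in labelled wild type and 722, 1266, 834, 682 and 1086 in the labelled knockout, where replicates 2 and 5 came closest to labelled wild type. The log2 fold change was -0.67 ± 0.13 (limma adjusted p = 0.0392), and 19.2% of its words are shared with the overlapping gene Pgls. The processed pseudogene Gm32220, which shares 47% of its words with the B cell receptor gene Cd79a, was lower, at -0.59 ± 0.11 (limma adjusted p = 0.0334). Cd79a itself was at 5732, 5794, 6471, 5851 and 5719 in labelled wild type and 3151, 5432, 4249, 3167 and 5374 in the labelled knockout, a log2 fold change of -0.51 ± 0.13 that was not called (limma adjusted p = 0.119) and was -0.30 without the 3 libraries with pancreatic RNA.

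The mature B cell list had 0 of 16 genes called by limma or edgeR and 2 called lower by DESeq2, but all 16 means were lower, with a median of -0.38, beside 0.01 under vehicle and -0.0038 over all genes tested. At an unadjusted limma p under 0.05, 11 of the 16 were lower, among them Ms4a1 at -0.49 and Cd79b at -0.47. The mean log2 level of the list was 11.91 ± 0.04 (SD, n = 5) in labelled wild type, and in the labelled knockout it was 11.17, 11.95, 11.49, 11.24 and 11.94 in replicates 1 to 5. Replicates 2 and 5 thus stood at the labelled-wild-type level and replicates 1, 3 and 4 below it, and the summed level ran from 55250 to 98750 against 86240 to 93550. In whole tissue, fewer cells of a type and less RNA per cell cannot be told apart. Replicates 1, 3 and 4 were also the highest of the 10 libraries in the erythroid list (14.50, 14.38 and 14.44 against 13.97 to 14.17 in labelled wild type) and in the cell division list (12.01, 11.98 and 12.03 against 11.57 to 11.79). By summed level the order in the erythroid list was another: replicates 2 and 5 were highest (5289000 and 4193000), and replicate 3 (3678000) was below labelled-wild-type replicate 3 (3847000). Their part in the lower B-cell and interferon-family genes was not tested.

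Adamts6, a secreted metalloprotease, was lower at 222 ± 27.7 in labelled wild type and 138 ± 29.7 in the labelled knockout (mean ± SD, n = 5 each), a log2 fold change of -0.70 ± 0.14 (limma adjusted p = 0.0392). The last 2 genes of the lower set are transcripts without a known product. Gm20559 was at 1561, 1577, 1461, 1385 and 1368 and 773, 1116, 939.5, 862 and 1202, and 5830408C22Rik at 125, 120.2, 125, 123 and 112 and 66.6, 94.9, 84.9, 87.0 and 92.3, with log2 fold changes of -0.60 ± 0.11 (limma adjusted p = 0.0212) and -0.51 ± 0.10 (limma adjusted p = 0.0392). Neither gene's groups overlapped.

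Among the 11 higher genes on other chromosomes, Igha (chromosome 12, 113254830 to 113260236) differed most and varied most. It was at 368, 428, 613, 351 and 598 in labelled wild type and 2779, 4862, 773, 2916 and 1261 in the labelled knockout. The lowest labelled-knockout library, replicate 3, was above the highest labelled-wild-type one, and replicate 2 was the highest. The log2 fold change was 2.18 ± 0.42 (limma adjusted p = 0.0373), beside 1.59 ± 0.44 under vehicle. Without the 3 libraries with pancreatic RNA it was 2.08 (limma adjusted p = 0.119). No other heavy chain constant gene was called: Ighm was at 0.01, Ighd at -0.18, Ighg2b at 0.35 and Ighg3 at -0.21. The 17 plasma cell genes tested had 1 called, Igha, with a median of 0.05, and Jchain, which joins IgA and IgM chains, was at 0.36 (limma adjusted p = 0.343).

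Variable segments of immunoglobulin genes were called in 2 cases. Ighv1-11 was at 14.5, 19.6, 9.07, 10.8 and 16.1 in labelled wild type and 48.4, 86.4, 20.1, 49.9 and 48.3 in the labelled knockout, a log2 fold change of 1.69 ± 0.34 (limma adjusted p = 0.0392). Igkv1-110 was at 938, 927, 1132, 1169 and 1111 and 1613, 2224, 1552, 1667 and 1580, a difference of 0.70 ± 0.13 (limma adjusted p = 0.0212), and 50.9% of its words occur in the segments Igkv1-117 and Igkv1-122. Replicate 2 was highest in both, as in Igha. Among 93 heavy chain variable segments tested 61 means were higher and 32 lower (median 0.16), and among 92 kappa segments 48 were higher and 44 lower (median 0.05).

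Cish, an inhibitor of cytokine signalling that STAT5 induces (chromosome 9, 107296026 to 107302784), was at 274, 292, 208, 254 and 308 in labelled wild type and 505, 551, 471, 412 and 351 in the labelled knockout. The groups did not overlap. Cish was higher by 0.77 ± 0.13 on the log2 scale (limma adjusted p = 0.0116), beside 0.16 ± 0.14 under vehicle. Gm17041, antisense to Cish, was higher by 0.82 ± 0.16 (limma adjusted p = 0.0392), and reads of the pair cannot be told apart. Of the related genes, Pim1, a kinase that cytokines induce, was at 0.62 (limma adjusted p = 0.0737), while Socs1, Socs2, Socs3 and Pim2 were at -0.14, 0.18, 0.25 and -0.08. In the livers Cish was at 596 ± 359 in wild type and 232 ± 35.6 in knockout after PCB-153 (SD, n = 5 each), a difference that was not called.

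Itgae, the alpha E integrin that anchors lymphocytes and dendritic cells to E-cadherin (chromosome 11, 73090583 to 73147446), was at 143, 126, 102, 159 and 153.1 in labelled wild type and 266, 303, 228, 207 and 228 in the labelled knockout. Sema3g, a secreted semaphorin (chromosome 14, 31217860 to 31230352), was at 280.1, 216, 278, 281 and 283 and 451, 669, 502, 449.8 and 392. Both were higher without overlap, by 0.85 ± 0.14 (limma adjusted p = 0.00788) and 0.86 ± 0.16 (limma adjusted p = 0.0263), and under vehicle their differences were 0.38 ± 0.15 and 0.49 ± 0.17. Il9r, the interleukin-9 receptor, was at 455, 454, 462, 489.5 and 451 and 565, 619.5, 753, 618 and 869.7, a log2 fold change of 0.55 ± 0.11 (limma adjusted p = 0.0373) with a narrow range in labelled wild type.

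Cd5l, a secreted protein of tissue macrophages (chromosome 3, 87357881 to 87371073), was at 1141, 924, 1084, 956 and 1063 in labelled wild type and 1772, 2555, 1197, 1582 and 1451 in the labelled knockout. Gpx3, a secreted glutathione peroxidase, was at 649, 638, 797, 679.5 and 787 and 973, 1771, 1094, 851 and 1221. In both, replicate 2 was the highest and the groups did not overlap. The log2 fold changes were 0.68 ± 0.14 (limma adjusted p = 0.0478) and 0.69 ± 0.14 (limma adjusted p = 0.0392). Of the 20 macrophage genes tested Cd5l was the only one called, 18 means were higher, and the median was 0.23, beside 0.24 under vehicle. Marco, a scavenger receptor, was at 0.51 and Hmox1, which breaks down haem, at 0.47, neither called. Labelled-knockout replicate 2 was the highest of the 10 libraries in this list, at 11.17 against 10.26 to 10.59 in labelled wild type.

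**Figure D4:**
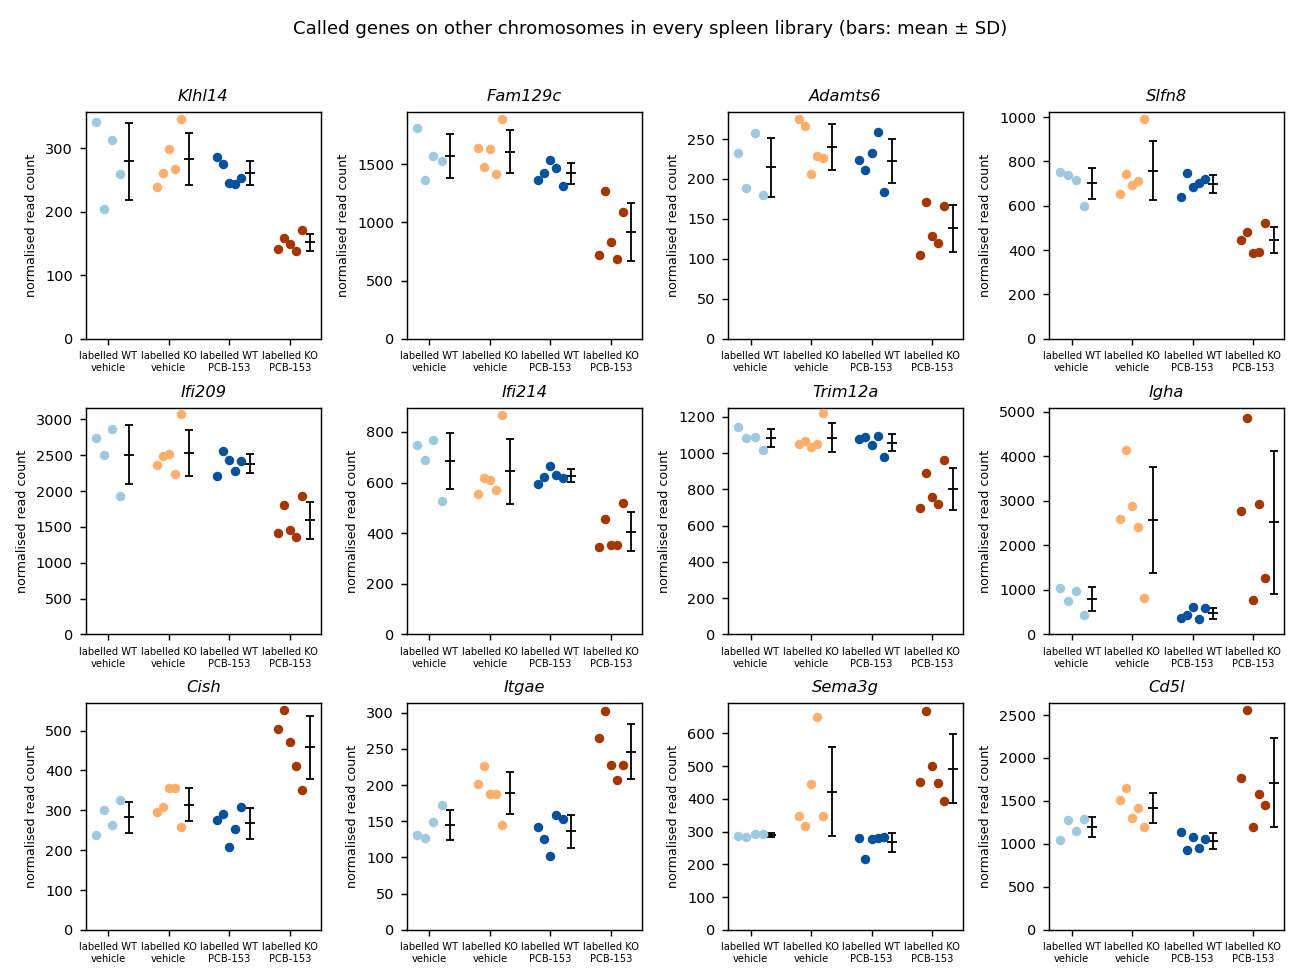
Normalised read counts (y axis, from 0) of 12 called genes on other chromosomes in each spleen library of the 4 groups, with mean ± SD as black bars. The first 7 genes are lower in the labelled-knockout PCB-153 group, beside vehicle log2 fold changes of -0.09 to 0.17, and the last 5 are higher there.

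Most cell type lists had no called gene. The 30 erythroid genes tested all had a higher mean (median 0.25, beside -0.11 under vehicle), with 10 at an unadjusted limma p under 0.05. Alas2, the first enzyme of haem synthesis in red cells, was at 31950, 25150, 30260, 28950 and 33130 in labelled wild type and 36880, 55870, 35690, 36450 and 42250 in the labelled knockout, a log2 fold change of 0.46 ± 0.15 that was not called (limma adjusted p = 0.235). Of 22 stromal genes 20 means were higher (median 0.31), with 14 at an unadjusted p under 0.05. DESeq2 called 4 of the 22 and edgeR none. Of 16 megakaryocyte and platelet genes 15 means were lower (median -0.30), with 9 at an unadjusted p under 0.05, and 1 was called by DESeq2.

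Of 23 neutrophil genes 22 means were higher (median 0.21), while under vehicle 20 were lower (median -0.67), and S100a8 was at 0.18 ± 0.13 (limma adjusted p = 0.674). The 31 cell division genes split into 21 higher and 10 lower means (median 0.06), beside 31 lower means under vehicle (median -0.27), and Mki67 was at 0.10 ± 0.17 (limma adjusted p = 0.894), a difference that turned to -0.07 with quantile normalisation and to -0.14 without the 3 libraries with pancreatic RNA. Among the targets of xenobiotic receptors 17 of 28 genes passed the filter on low values and none was called by limma, edgeR or DESeq2. In them 10 means were higher and 7 lower, and 3 were higher at an unadjusted p under 0.05. Cyp1b1 was at 0.38 (limma adjusted p = 0.197), Abcc3 at 0.30 (0.384) and Gstm1 at 0.39 (0.284). Cyp3a11, the main target of the receptor in liver, gave -2.69 (limma adjusted p = 0.516), with 198 in labelled-wild-type replicate 1, which carried hepatocyte RNA, and at most 12.1 in the other 9 libraries.

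Under vehicle 6 genes were called in the same fit (0.0315% of those tested), of which 5 are among the 30: Nr1i2, Pla1a, Ift57, Cd96 and Dubr. By sign, 20 of the 30 differed in the same direction under vehicle, beside 50% of all genes tested. All 8 genes of chromosome 16 and all 11 higher genes elsewhere had the same sign under vehicle, and 1 of the 11 lower genes did, Ifi214 at -0.09. The test of the difference between the PCB-153 and vehicle comparisons called no gene with limma (0.0%) or edgeR, and 1877 genes (9.85%) had an unadjusted p under 0.05, with a smallest adjusted p of 0.417. The 30 genes were chosen on the PCB-153 difference, which is one side of this contrast, so their share of small p-values is not read against that of all genes. Of them, 20 were at an unadjusted p under 0.05, and the 11 lower genes on other chromosomes all were, from 5.96e-05 for Slfn8 to 0.00736 for Ifi214. For Slfn8 the difference was -0.76 ± 0.15 (interaction adjusted p = 0.417), for Klhl14 -0.81 ± 0.18 (0.417) and for Ifi209 -0.62 ± 0.16 (0.417). For Nr1i2 it was 0.00 ± 0.53, with a 95% interval of -1.11 to 1.11, and for Dubr -0.21 ± 0.21, with -0.64 to 0.22. On chromosome 16 the difference was 0.35 ± 0.15 for Ift57, with an interval of 0.04 to 0.66, and -0.38 ± 0.17 for Cep97, with -0.73 to -0.04 (interaction adjusted p = 0.465 for each). A differing genotype effect between the exposures was therefore not called for any single gene.

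**Figure D5:**
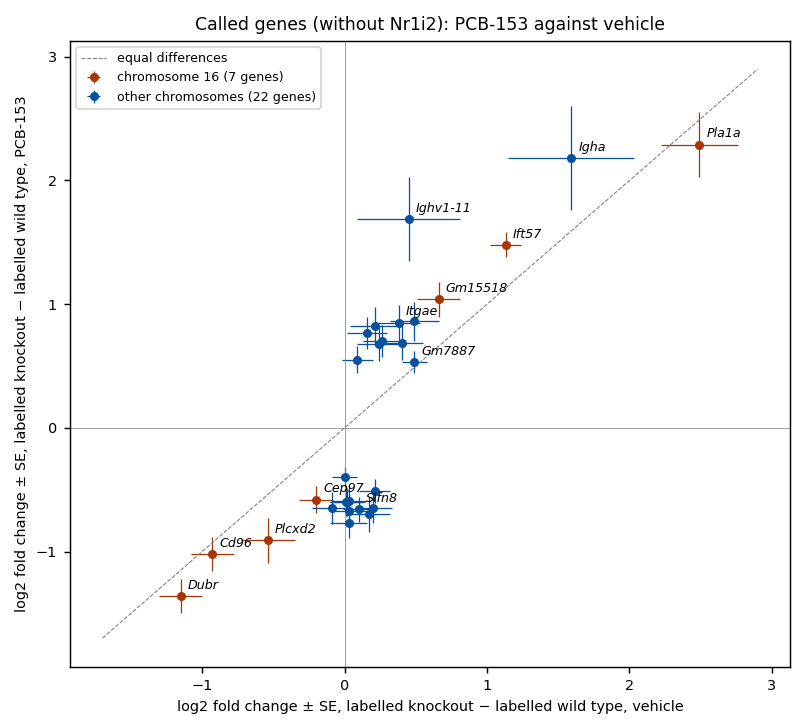
Log2 fold change of the labelled knockout over labelled wild type under PCB-153 (y axis) against that under vehicle (x axis) for 29 of the 30 called genes, with SE bars and a dashed line of equal differences. Nr1i2, at 5.38 in both, is left out for scale. Chromosome 16 genes (red) have the same sign on both axes, with Ift57 at 1.13 under vehicle and 1.48 under PCB-153, and the 11 lower genes elsewhere (blue) lie near 0 on the x axis.

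In the livers of mice exposed to PCB-153, 18 of the 30 genes passed the filter on low values and 2 were called, where 1.45% of the 16155 genes tested were called. Ift57 was at 10.8 ± 4.95 in wild-type and 44.2 ± 13.2 in knockout livers (SD, n = 5 each), a log2 fold change of 1.98 (limma adjusted p = 0.000302). Sema3g was at 4.07 ± 1.58 and 18.8 ± 6.94, a difference of 1.96 (limma adjusted p = 0.038). Igha was at 1.51 (limma adjusted p = 0.0586). On chromosome 16, Cep97 gave -0.59 (limma adjusted p = 0.172), in the direction seen in spleen. Pla1a gave -0.19 (0.665) and Plcxd2 0.61 (0.167), both in the direction opposite to that in spleen. The other called genes of that chromosome did not pass the filter. Dubr averaged 13.4 in wild type and 4.19 in knockout, and Gm15518 2.27 and 6.64, in the order seen in spleen. Cd96 averaged 0.785 and 1.15, in the opposite order. In Ift57 and Sema3g the labelled order was the same in both tissues, and in Nr1i2 it was not. The tissues were normalised separately, so levels are not compared between them.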

How the data were processed

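Per the labels' protocols, frozen tissue was extracted with Trizol and sequenced from Illumina TruSeq libraries. The labels name 2 versions of that kit, 1 stranded, and no source used here gives the strand setting of the read counting. Per the submitters' processing notes the tools were STAR 2.6.0, featureCounts, FastQC and DESeq2 (version written as 3.8), on the build mm10. The signal tables the authors deposited hold normalised read counts of 54735 genes, that is, reads of a gene over a size factor of its library. All values gave whole reads within 0.05 reads after division by a library's step. In each tissue 26 symbols that had turned into dates were restored from the authors' full table. The authors' deposited comparison table, with log2 fold changes, Wald scores and p-values, was used for its list of genes only. The test was limma 3.58.1 (R 4.3.3, trend, two-sided) on log2(value + 1) of genes with a mean of at least 10, in 1 fit over the 4 spleen groups and another over the 4 liver groups. Replicates differed by more than counting error (chi-square per degree of freedom at least 5.12), and the median SE per gene was 0.123.

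Alternatives were pseudocounts of 0.5 and 5, no filter or a higher one (mean of at least 50), quantile normalisation, the compared groups fitted alone, a replicate block, each library left out, edgeR 4.0.16 and DESeq2 1.42.0 on recovered reads and, added after the data were seen, the fit without 3 libraries with pancreatic RNA. The limma fit was tested on simulated data. The comparison, gene lists and rules were chosen with earlier results of these data known. Named by rule were Nr1i2, up to 12 called genes a direction with a mean of at least 50 that are not predicted genes, called list members and called genes within 20 Mb of Nr1i2, and 5 markers. The other 7 called genes, Pcnp, list members that were not called and the families of related genes were picked after their values were seen. Positions are from GENCODE M21 (GRCm38), promoters from RefSeq. Shared sequence is the percentage of a gene's 50-base words found in other genes.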

Additional observations from a re-analysis of the deposited data

Results flagged for a closer look

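In groups of 5 libraries, a library far from the other 4 was looked for in 36 named genes in both PCB-153 spleen groups. Of these 72 groups 7 had one. The rule would flag about 1 in 20 groups of independent, normally distributed values. The named genes share libraries and most were chosen by their p, so 7 of 72 is not read against that rate. The flag of Nr1i2 rests on 2 reads. In labelled wild type, replicate 1 held the only Nr1i2 reads (2.232, against 0 in the other 4), replicate 2 was low in Sema3g (216.2), and replicate 3 was low in Cd96 (114.2) and high in Cd79a (6471). In the labelled knockout, replicate 2 was high in Igkv1-110 (2224) and low in Gm7887 (391.9), and replicate 3 was low in Plcxd2 (37.98).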

How the results depend on the processing

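The count of 30 called genes was 31 and 30 with pseudocounts of 0.5 and 5, 29 with a minimum mean of 50, 27 with quantile normalisation and 22 without a filter. It was 14 in a fit of the compared groups alone, 65 with edgeR, 221 with DESeq2 and, in a fit added after the data were seen, 38 without the 3 libraries with pancreatic RNA. That last fit kept only labelled-knockout replicates 2 and 3, both with raised pigment cell genes. Leaving out 1 library gave 10 to 119 calls. Without a labelled-wild-type library these were 11, 10, 12, 13 and 52 for replicates 1 to 5. Without labelled-knockout replicates 1 to 5 they were 17, 60, 19, 26 and 119. With the replicate number as a block 3 genes were called, Nr1i2, Ift57 and Pla1a. The labels do not say that a number marks shared animals. Deviations of same-numbered libraries from their group means correlated at 0.104, -0.188, 0.036, -0.107 and 0.156. Such values cannot show whether a number marks shared litters or handling. Mki67 turned negative with quantile normalisation (-0.07), without labelled-knockout replicate 4 (-0.0027, with 0.26 as the highest value when 1 library was left out) and without the libraries with pancreatic RNA (-0.14), and Cd3e turned positive without the latter (0.06). In 397 of 597 repeats over the called genes the call held, in 200 it was lost with the same direction, and in none did the direction turn. The genes were chosen on these libraries, so a kept direction was largely fixed by that choice. The causes were not tested. At a median depth of 20.57 M reads, Nr1i2 in labelled wild type rests on 2 reads.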
